A study of Mus musculus with 22 samples.

Results

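Aminoacyl-tRNA synthetases, the enzymes that load each tRNA with its amino acid, and the 3 non-enzymatic proteins that hold several of them in a complex were followed through the ribosome-bound messages of 6 cell types of the mouse nervous system. Members were the genes with a protein-coding transcript whose symbol is that of a synthetase (the letter of the amino acid followed by "ars", with or without a 2 or l2, and Eprs, Farsa and Farsb) or Aimp1, Aimp2 or Eef1e1. The rule used names only and found 41 of the 55385 genes in the quantified index: 21 cytosolic enzymes, 17 mitochondrial enzymes (symbols ending in 2) and the 3 partners. Tarsl2, another threonyl enzyme, was counted with the cytosolic set. All 41 passed the filter on low counts, with no fewer than 144 estimated counts in any of the libraries used.

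Each mouse carried 1 floxed RiboTag allele (Rpl22 Fl/+) and a Cre transgene, so that ribosomes of the Cre-expressing cells held an HA-tagged RPL22. Those ribosomes were pulled down from tissue of 6-week-old animals, and the poly(A) RNA bound to them was sequenced. Dentate gyrus granule cells (hippocampus) and layer V pyramidal neurons (cortex) were both taken with Rbp4-Cre, cerebellar granule cells with Gabra6-Cre, inhibitory interneurons (hippocampus) with Dlx6a-Cre, cortical astrocytes with the line labelled Aldh1-cre (Aldh1l1-cre/ERT2 in the study's methods) and cortical microglia with Tmem119-cre. No group was free of the tagged allele, and the untagged input of each tissue was not analysed here. The astrocyte and microglia lines were inducible and were induced with tamoxifen. Each interneuron replicate pooled the hippocampi of 2 mice. There were 3 biological replicates per cell type, with both sexes in each. Replicates sequenced in both batches were represented by their batch 1 library, and the interneuron and microglia libraries were all of batch 2. TPM, the unit of the levels below, is the share of a library's transcripts that a gene takes, scaled for transcript length, so that levels of different genes can be set side by side. Fewer cells of a type cannot be told apart from less RNA per cell.

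Every cell that makes protein needs a cytosolic enzyme for each amino acid, and its mitochondria need another set, encoded by separate nuclear genes for most amino acids, to translate the few proteins of the mitochondrial genome. In mammals the cytosolic enzymes for arginine, aspartate, glutamine, isoleucine, leucine, lysine and methionine and EPRS, which joins the glutamyl and prolyl enzymes in a single chain, assemble with the scaffold proteins AIMP1, AIMP2 and EEF1E1 (AIMP3) into the multisynthetase complex. The lysyl and glycyl enzymes, KARS and GARS, serve both compartments from a single gene. Dominant mutations in several cytosolic enzymes, among them GARS, YARS, AARS, HARS and WARS, are known from inherited peripheral neuropathies, and recessive mutations in DARS, RARS, EPRS, AIMP1 and AIMP2 from diseases of white matter. Several cytosolic synthetase genes are also known targets of ATF4, the transcription factor of the amino acid response.

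The libraries held 38270477 to 71440915 estimated counts, of which 95361 to 239901 fell on the members. Of 30 marker genes of the 6 cell types and of neurons, 27 were higher in every library of their own type than in every other library. The exceptions were Bcl11b, Etv1 and Rbp4, markers of layer V neurons, which other neurons held at higher levels. Markers of a cell type outside the 6 were present in some libraries: the summed TPM of 5 oligodendrocyte genes was 2612 to 2795 in interneurons, 768 to 982 in astrocytes and 449.5 to 536 in microglia, against 102 to 121 in cerebellar granule cells. The summed TPM of 3 neuronal markers was 638 to 878 in astrocytes and 314 to 352 in microglia, against 2973 to 3475 in dentate gyrus granule cells, the lowest of the neurons. The part of this RNA in the results below was not tested. The 13 protein-coding genes of the mitochondrial genome took 0.198 to 1.36% of the TPM in neurons and 1.33 to 2.4% in glia.

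Most cytosolic enzymes were several times more abundant than the mitochondrial ones. Averaged over the 18 libraries, the level of a cytosolic enzyme ran from 18.8 TPM for Tarsl2 to 200.2 TPM for Nars, with a median of 55.5. Among the mitochondrial enzymes without Lars2 the median was 13.1 TPM and the highest was Fars2 at 30.9. The 3 members with the lowest means were Ears2, Mars2 and Wars2, the mitochondrial glutamyl, methionyl and tryptophanyl enzymes. Wars2 stood at 4.13, 4.52 and 5.71 TPM in dentate gyrus granule cells and at 2, 1.74 and 1.61 TPM in layer V neurons, its highest and lowest types. Ears2 was at 3.06 to 6.75 TPM in the neuronal libraries and at 3.04 to 6.8 TPM in the glial ones. Those ranges nearly coincide, but the glial one joins astrocytes, at 3.04, 3.31 and 3.22 TPM, and microglia, at 5.99, 5.97 and 6.8 TPM. Of the 3 members with the highest means, Nars (asparaginyl) and Sars (seryl) followed Lars2. Nars was at 313, 285 and 302 TPM in cerebellar granule cells and 103, 106 and 96.2 TPM in astrocytes, the extremes of its range. Sars was at 307, 309 and 329.6 TPM in interneurons, the highest of any cell type, and at 113, 112 and 112 TPM in microglia, the lowest. The partner Aimp1 was the most abundant of the scaffold messages, at 93.7 TPM on average, against 29.7 for Aimp2 and 27.3 for Eef1e1.

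Lars2, the mitochondrial leucyl enzyme, had the highest listed level of all, at 529.6 TPM, but little of it was protein-coding message. Its leading transcript, annotated as a target of nonsense-mediated decay, carried 77.7% of the TPM and a retained-intron transcript carried 18.4%. The main protein-coding transcript carried 3.8%, at 20.1 TPM on average, a level within the range of the other mitochondrial enzymes. The level of the leading transcript also spread widely within a cell type: in dentate gyrus granule cells it was 676, 317 and 446 TPM, and the rRNA-related gene Gm42418 was at 16860, 3511 and 4790 TPM in the same 3 libraries. In layer V neurons that transcript was at 634, 684 and 642 TPM and Gm42418 at 10170, 5440 and 8192 TPM, and there the order of the libraries differed between the 2. The relation of the 2 genes was not tested. Because of these transcripts the mitochondrial sums below are given without Lars2. With it, the mitochondrial sum was 904 ± 256 TPM (SD, n = 3) in dentate gyrus granule cells and 996 ± 47.9 TPM in layer V neurons. Without it these sums were 246 ± 9.52 and 196 ± 4.43 TPM.

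Summed as a class, the cytosolic enzymes took more of the ribosome-bound message in neurons than in glia. Their summed level was 1904, 1934 and 1963 TPM in the interneuron libraries and 1975, 1888 and 1916 TPM in cerebellar granule cells. It was 1303, 1447 and 1425 TPM in dentate gyrus granule cells and 1357, 1312 and 1403 TPM in layer V neurons. Astrocytes held 997, 976 and 946 TPM and microglia 1200, 1185 and 1189 TPM. No glial library reached the lowest neuronal one, and no library of dentate gyrus or layer V neurons reached the lowest of interneurons or cerebellar granule cells. In microglia the lower sum was not shared by most members. In the tests below, 10 cytosolic enzymes were lower there than in neurons (all genes, 37.2%) and 9 higher (all genes, 45.1%). The abundant Gars, Sars and Hars were among the lower ones. The mean of interneurons, 1934 ± 29.6 (SD, n = 3), and that of cerebellar granule cells, 1926 ± 44.7, differed by less than their spread, as did those of dentate gyrus and layer V neurons. The 3 partners followed the same split, with 139 to 191 TPM in neuronal libraries and 103 to 112 TPM in glial ones. The 16 mitochondrial enzymes without Lars2 did not: astrocytes, at 236 ± 7.27 TPM, lay between dentate gyrus granule cells and layer V neurons, and microglia, at 200 ± 11.7 TPM, overlapped with layer V neurons. Summing protein-coding transcripts only, the cytosolic enzymes were at 872 ± 17.5 TPM in astrocytes, 962 ± 5.29 in microglia, 1273 ± 79 in dentate gyrus granule cells and 1272 ± 38 in layer V neurons. On the same footing the 16 mitochondrial enzymes were at 128 ± 4.7 TPM in microglia and 136 ± 2.35 TPM in layer V neurons, with every microglia library below every neuronal one, and at 178 ± 5.61 TPM in astrocytes. The sums per library are drawn in the stacked bars of class totals.

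**Figure D1:**
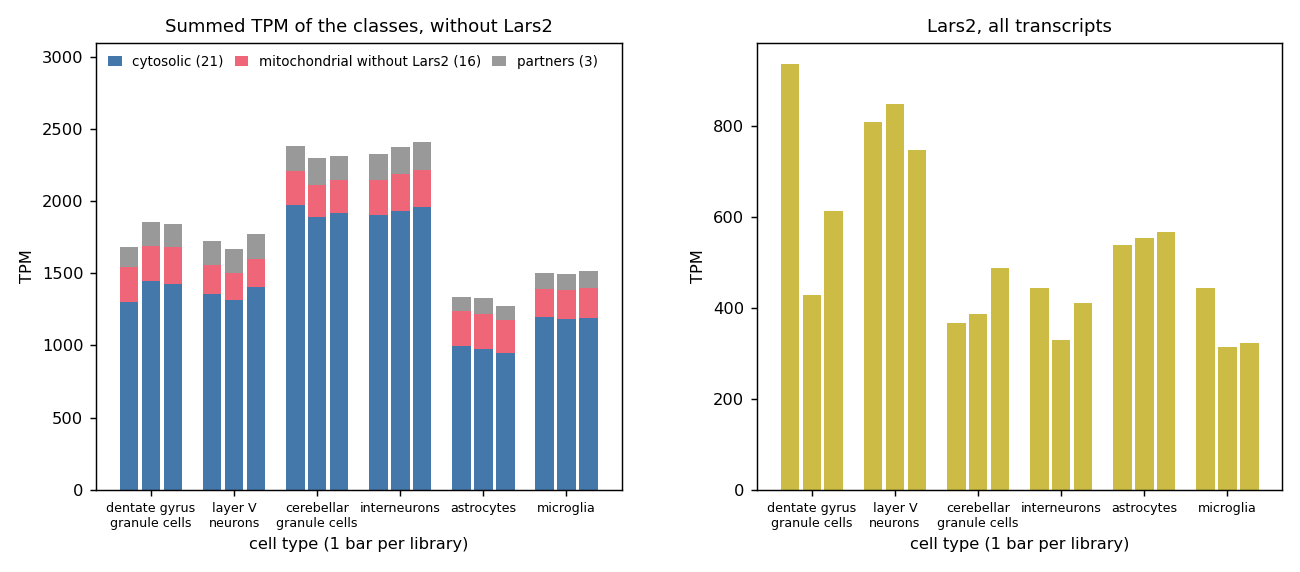
Summed TPM per library of 21 cytosolic enzymes, 16 mitochondrial enzymes and 3 partners (left, stacked) and of Lars2 alone (right), with 3 bars per cell type in replicate order. The cytosolic sum is 946 to 1200 TPM in the glial libraries and 1303 to 1975 TPM in the neuronal ones, and Lars2 spreads widely between the dentate gyrus replicates.

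Each of the 41 members differed across the 6 cell types (edgeR's quasi-likelihood F test, Benjamini-Hochberg adjusted over the 20524 genes tested, largest adjusted p among members = 0.00014). Of all genes tested, 97.3% did. The highest cell type mean exceeded the lowest by a median of 2.23-fold among the cytosolic enzymes and 2.23-fold among the mitochondrial enzymes. The widest range was that of Mars2, the mitochondrial methionyl enzyme, at 9.78-fold. Tarsl2 followed at 5.29-fold, and Lars, the cytosolic leucyl enzyme, had the narrowest range among the cytosolic enzymes at 1.77-fold. Of the 21 cytosolic enzymes, 12 had their lowest mean in astrocytes, and 7 and 6 had their highest in cerebellar granule cells and interneurons. The heat map of members by library shows these patterns.

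**Figure D2:**
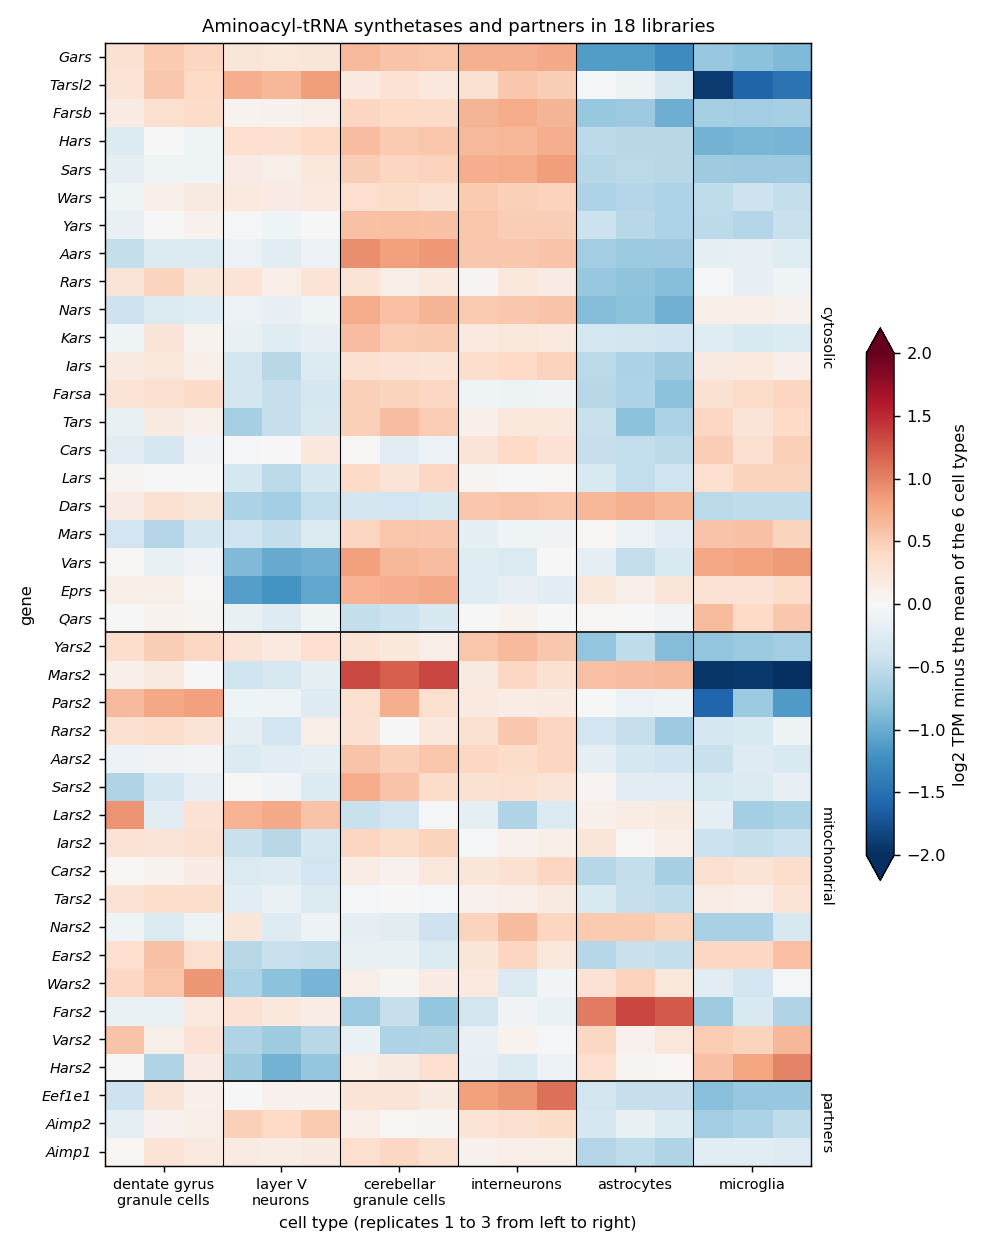
Log2 TPM of 40 members (rows, grouped as cytosolic, mitochondrial and partners and ordered by glia minus neurons) in each of 18 libraries (columns), relative to the mean of the 6 cell types. Colours beyond ±2 are capped. Gars is low in all 6 glial libraries, Tarsl2 and Mars2 are low in microglia, Fars2 is high in astrocytes, and Eprs and Vars are low in layer V neurons.

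The first comparison asked how glia differed from neurons, as the mean of astrocytes and microglia minus the mean of the 4 neuronal types. Only the glial lines were induced with tamoxifen, which cannot be told apart from cell class here. Both glial types came from cortex, as did only layer V neurons among the neurons. In this comparison 22 members were lower in glia, against 36.4% of all genes tested, and 11 were higher, against 46.8%. Log2 fold changes are given here and below with their standard error, as estimated by that fit. The lower ones were 13 cytosolic enzymes, 6 mitochondrial enzymes and all 3 partners. The median log2 fold change was -0.27 for the cytosolic enzymes, -0.02 for the mitochondrial enzymes and -0.39 for the partners, beside 0.18 for all genes. Most differences were modest: 2 members were lower by at least 2-fold (all genes, 15.9%) and 0 higher by as much (all genes, 30.3%). In TPM, 11 members had all 6 glial libraries below all 12 neuronal ones, which 13.0% of genes did. These were the cytosolic Gars, Hars, Sars, Yars, Wars, Kars, Farsb, Rars and Tarsl2, the mitochondrial Yars2 and the partner Aimp1. None lay above all of them, which 9.47% of genes did. The median of all genes was 0.18 in the count fit and -0.05 on the log2(TPM + 1) scale. On the latter scale 8 members were higher and 27 lower in glia, beside 11 and 22 in the counts. Of the 20524 genes, 7930 were higher and 9340 lower on that scale.

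Gars, the glycyl enzyme of both compartments (chr6:55038007-55079500 in GRCm38), showed the clearest split. Its level was 129.7, 162 and 188 TPM (lowest, median and highest) in the neuronal libraries, 51.1, 51.2 and 46.7 TPM in astrocytes and 65.7, 63.3 and 60.2 TPM in microglia. The highest glial library, at 65.7 TPM, lay far below the lowest neuronal one, and the groups did not overlap (log2 fold change -1.26 ± 0.03, adjusted p = 5.4e-17). Tarsl2, the less abundant cytosolic threonyl enzyme (chr7:65644898-65692091), was at 19.2, 22.8 and 29.9 TPM in neurons, 16.2, 15.5 and 13.4 TPM in astrocytes and 4.45, 5.48 and 5.98 TPM in microglia, lowest in microglia and with no overlap between the 3 (log2 fold change -1.28 ± 0.04, adjusted p = 1.5e-15). Eef1e1, a scaffold protein of the multisynthetase complex, was at 19, 29.3 and 54.5 TPM in neurons, 19.6, 18.3 and 18.4 TPM in astrocytes and 14.1, 15 and 14.9 TPM in microglia. One dentate gyrus library, at 19 TPM, fell among the astrocytes, so the groups overlapped (log2 fold change -0.97 ± 0.04, adjusted p = 2.8e-13). Hars, the histidyl enzyme, was at 87.6, 146 and 176 TPM in neurons and 55.1, 64.5 and 74.3 in glia, with log2 fold change -0.90 ± 0.03. Yars2, the mitochondrial tyrosyl enzyme, was at 20.1, 23.2 and 28.9 TPM in neurons and 10.04, 10.9 and 13 in glia (-0.85 ± 0.05). Farsb, the beta subunit of the phenylalanyl enzyme, was also lower (-0.80 ± 0.03), while its alpha subunit Farsa had a difference of -0.02 ± 0.03 with adjusted p = 0.6. The other members that did not pass the test here were Cars, Cars2, Ears2, Iars2, Lars2, Nars2 and Sars2. The levels of 9 members are plotted by library.

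**Figure D3:**
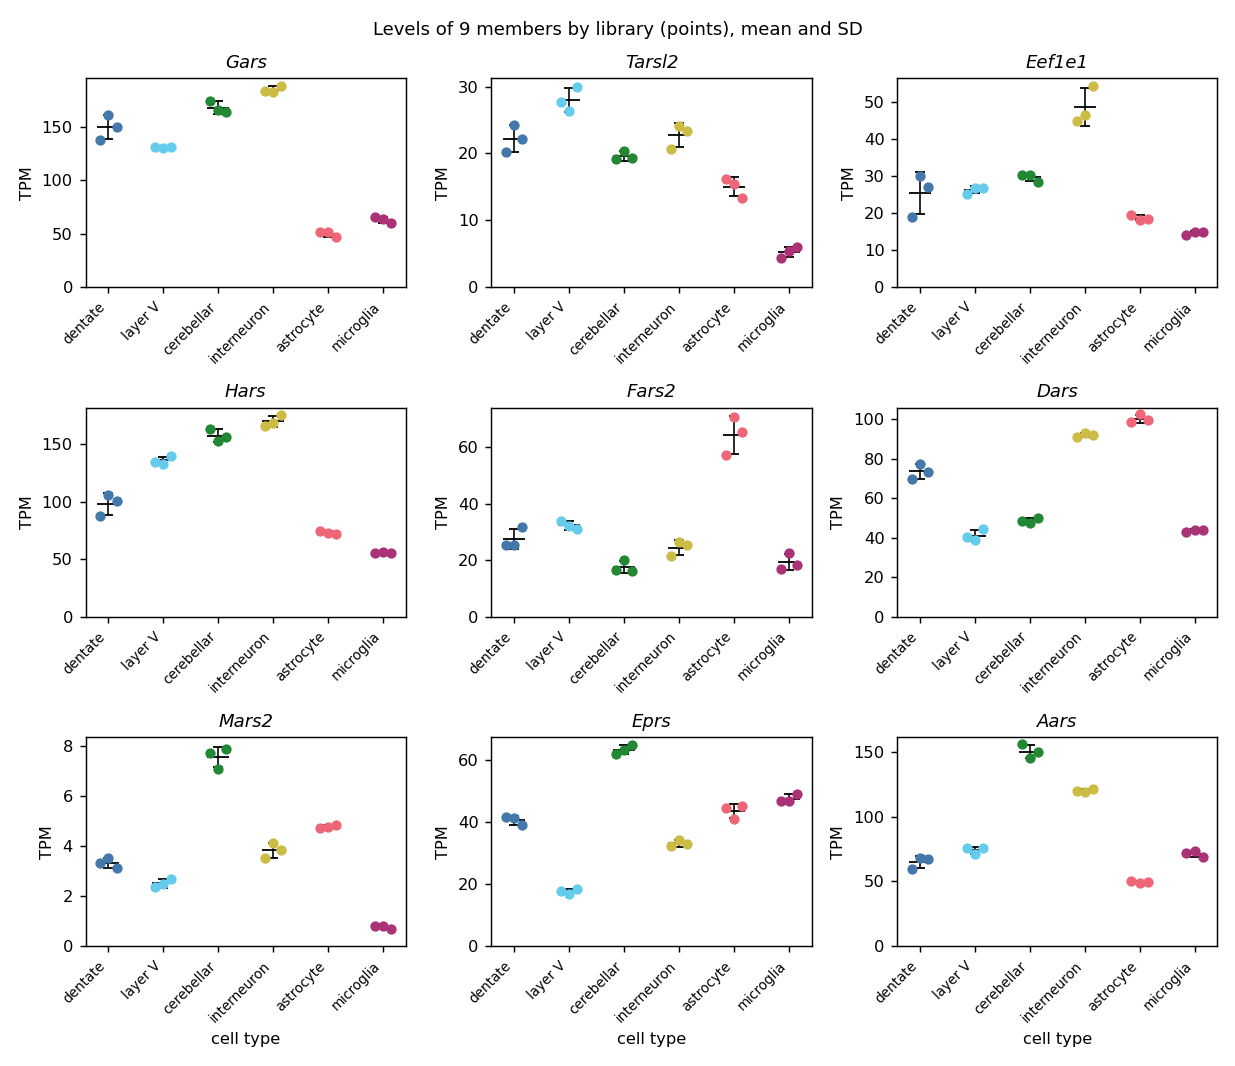
TPM of 9 members in each library (points), with the mean and SD of the 3 libraries of each cell type. Gars lies at 46.7 to 65.7 TPM in glia and at 129.7 to 188 TPM in neurons, while Fars2 and Dars are high in astrocytes but not in microglia, and Mars2 and Tarsl2 are lowest in microglia.

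Higher in glia were 6 cytosolic enzymes, Dars, Eprs, Lars, Mars, Qars and Vars, and 5 mitochondrial enzymes, Fars2, Hars2, Tars2, Vars2 and Wars2. Of the 6 cytosolic ones, all but Vars are enzymes of the multisynthetase complex. Of the 11 genes of that complex, though, 5 were higher in glia (all genes, 46.8%) and 6 lower (all genes, 36.4%). The differences of Lars (0.11 ± 0.04) and Tars2 (0.09 ± 0.03) were small and passed the test in 6 and 7 of 28 alternative settings. Fars2 led in this direction (log2 fold change 0.89 ± 0.05, adjusted p = 5.9e-12) and was above the neurons in astrocytes alone, as described below. Mars, the cytosolic methionyl enzyme, was at 22.8, 29.1 and 49.9 TPM in neurons, 34.8, 31.5 and 29.2 TPM in astrocytes and 50.7, 51 and 46.5 TPM in microglia, and overlapped with the cerebellar granule cells (log2 fold change 0.60 ± 0.03, adjusted p = 3.9e-12). Eprs, which joins the glutamyl and prolyl enzymes, was at 16.7, 36.6 and 64.9 TPM in neurons, 44.6, 40.9 and 45.3 TPM in astrocytes and 46.9, 46.7 and 49.1 TPM in microglia. Its neuronal range enclosed the glial values on both sides (log2 fold change 0.60 ± 0.04, adjusted p = 1.9e-11).

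Astrocytes differed from neurons in lower cytosolic and a mixture of lower and higher mitochondrial enzymes. Of the members, 25 were lower (all genes, 34.1%), 16 of them cytosolic, and 11 were higher (all genes, 43.0%), 7 of them mitochondrial. The median log2 fold change was -0.50 for the cytosolic and 0.05 for the mitochondrial enzymes, beside 0.14 for all genes. Within batch 1, which held the astrocytes and 3 of the neuronal types, 24 members were lower and 11 higher. Of the 19079 genes tested there, 6581 were lower and 8753 higher. Nars had the largest fall after Gars: 103, 106 and 96.2 TPM in astrocytes against 141, 223 and 313 TPM in neurons, with no overlap (log2 fold change -0.90 ± 0.03, adjusted p = 2.6e-14). Farsb followed, at 39.5, 40.4 and 34.1 TPM against 70.5, 86.5 and 111 TPM, again with no overlap (log2 fold change -0.87 ± 0.04, adjusted p = 1.5e-13). For Gars the value was -1.39 ± 0.04 with adjusted p = 1.7e-15. Rars and Aars, the arginyl and alanyl enzymes, were lower by similar amounts, at -0.75 ± 0.04 and -0.74 ± 0.04.

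Fars2, the mitochondrial phenylalanyl enzyme (chr13:36117412-36726280), was the member most raised in astrocytes and the only one above neurons by at least 2-fold there, where 28.3% of all genes were. It was at 57.3, 70.5 and 65.3 TPM in astrocytes against 16.2, 25.4 and 34 TPM in neurons and 17, 22.4 and 18.3 TPM in microglia. All 3 astrocyte libraries lay above all 15 others (log2 fold change 1.93 ± 0.06, adjusted p = 9.3e-16). A short form annotated as a processed transcript held 9.64 ± 6.57 TPM in astrocytes and 3.16 ± 3.08 in cerebellar granule cells. The main protein-coding transcript was at 25 ± 0.397 TPM in astrocytes against 9.39 ± 2.19 in interneurons, 7.71 ± 1.09 in cerebellar granule cells and 4.83 ± 0.699 in layer V neurons. With protein-coding transcripts only, the log2 fold change of the gene was 2.03.

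Dars, the aspartyl enzyme of the complex (chr1:128363707-128417368), was the cytosolic enzyme most raised in astrocytes. It was at 98.4, 102 and 99.4 TPM there, 91, 93.1 and 91.7 TPM in interneurons, 69.9, 77.4 and 73.5 TPM in dentate gyrus granule cells, 48.6, 47.6 and 49.98 TPM in cerebellar granule cells, 43.1, 44.1 and 44.1 TPM in microglia and 40.2, 38.7 and 44.4 TPM in layer V neurons. The astrocyte libraries were above all others, and layer V neurons and microglia did not differ beyond their spread in TPM (log2 fold change 0.98 ± 0.04, adjusted p = 1.3e-13). The interneuron and astrocyte libraries were also those with the most oligodendrocyte marker RNA, whose part in the level of Dars was not tested. Eprs came next among those higher in astrocytes (log2 fold change 0.58 ± 0.05, adjusted p = 1.2e-09). Smaller differences in the same direction were those of Nars2, Vars2, Mars2, Wars2 and Hars2, mitochondrial enzymes for asparagine, valine, methionine, tryptophan and histidine, at 0.58, 0.54, 0.52, 0.50 and 0.48 on the log2 scale.

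Microglia had lower levels of most mitochondrial enzymes and partners than neurons. Of the members, 24 were lower (all genes, 37.2%), among them 11 of the 17 mitochondrial enzymes, and 14 were higher (all genes, 45.1%), 9 of them cytosolic. At 2-fold or more, 6 were lower (all genes, 21.4%): Tarsl2, Mars2, Eef1e1, Pars2, Hars and Gars. The medians were -0.03 for cytosolic enzymes, -0.34 for mitochondrial ones and -0.64 for partners, beside 0.15 for all genes. All microglia libraries were of batch 2, in which 4 of the types had 1 library each. Within that batch more members were again lower than higher, while more of all genes were higher than lower.

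Mars2 (chr1:55237177-55248470), which has a single annotated transcript, was at 0.805, 0.812 and 0.707 TPM in microglia. It was at 7.74, 7.11 and 7.88 TPM in cerebellar granule cells, 4.73, 4.78 and 4.85 TPM in astrocytes, 3.53, 4.13 and 3.84 TPM in interneurons, 3.33, 3.52 and 3.14 TPM in dentate gyrus granule cells and 2.36, 2.48 and 2.71 TPM in layer V neurons. No library of another type came within 2-fold of the microglia values, and none of the 6 types overlapped (log2 fold change -2.19 ± 0.08, adjusted p = 6e-15). Tarsl2 was lower in microglia by a similar amount (log2 fold change -2.20 ± 0.06, adjusted p = 1.1e-16), and within batch 2 the 2 values were -2.25 and -2.23. The partner Eef1e1 came next (log2 fold change -1.28 ± 0.06, adjusted p = 4.6e-13), and Aimp2, another scaffold protein, was at 17.7, 18.6 and 20.2 TPM in microglia against 25.3, 33.1 and 41.5 in neurons (-0.64 ± 0.06). Aimp1 was lower by less, at 79.6, 78.3 and 76.7 TPM against 94.6, 103 and 123 (-0.25 ± 0.05). Pars2, the mitochondrial prolyl enzyme, was at 1.93, 3.48 and 2.65 TPM in microglia against 4.87, 6.94 and 10.2 in neurons, a spread between the 3 microglia libraries of more than 1.5-fold (-1.17 ± 0.11).

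Vars, the cytosolic valyl enzyme, had the largest rise in microglia over all transcripts, at 35, 35.9 and 36.9 TPM against 10.1, 19 and 36.1 TPM in neurons. The microglia values overlapped with those of the cerebellar granule cells, at 36.1, 32.3 and 31.4 TPM, and lay above all other neuronal libraries (log2 fold change 0.87 ± 0.05, adjusted p = 4.3e-11). Of the Vars TPM, 65% was on protein-coding transcripts in microglia, against 85.9 to 95% in the neuronal types. With those transcripts only its log2 fold change was 0.68, below the 1.01 of Ears2 and the 0.70 of Eprs. Mars came next (log2 fold change 0.81 ± 0.04, adjusted p = 1.5e-12), but only 51.2% of its TPM in microglia was on protein-coding transcripts, against 85.5 to 97.2% in the neuronal types, and with those transcripts only the log2 fold change was 0.28. Hars2, the mitochondrial histidyl enzyme, followed, at 28.8, 33.1 and 38.1 TPM against 9.98, 17.5 and 24.3 TPM in neurons (log2 fold change 0.71 ± 0.07, adjusted p = 1.5e-08), although its cytosolic counterpart Hars was lower (-1.14 ± 0.04). Of the Hars2 TPM, 48.5% was on protein-coding transcripts in microglia, against 56.8 to 84.2% in the neuronal types. With those transcripts only its log2 fold change was 0.62. Hars and Hars2 lie head to head on the genome and share exonic bases on opposite strands. Qars, the glutaminyl enzyme, was at 57.9, 49.3 and 54.2 TPM in microglia and at 27, 36.3 and 39.2 TPM in neurons (0.70 ± 0.04). Of Qars, 37.4% of the TPM was on protein-coding transcripts.

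**Figure D4:**
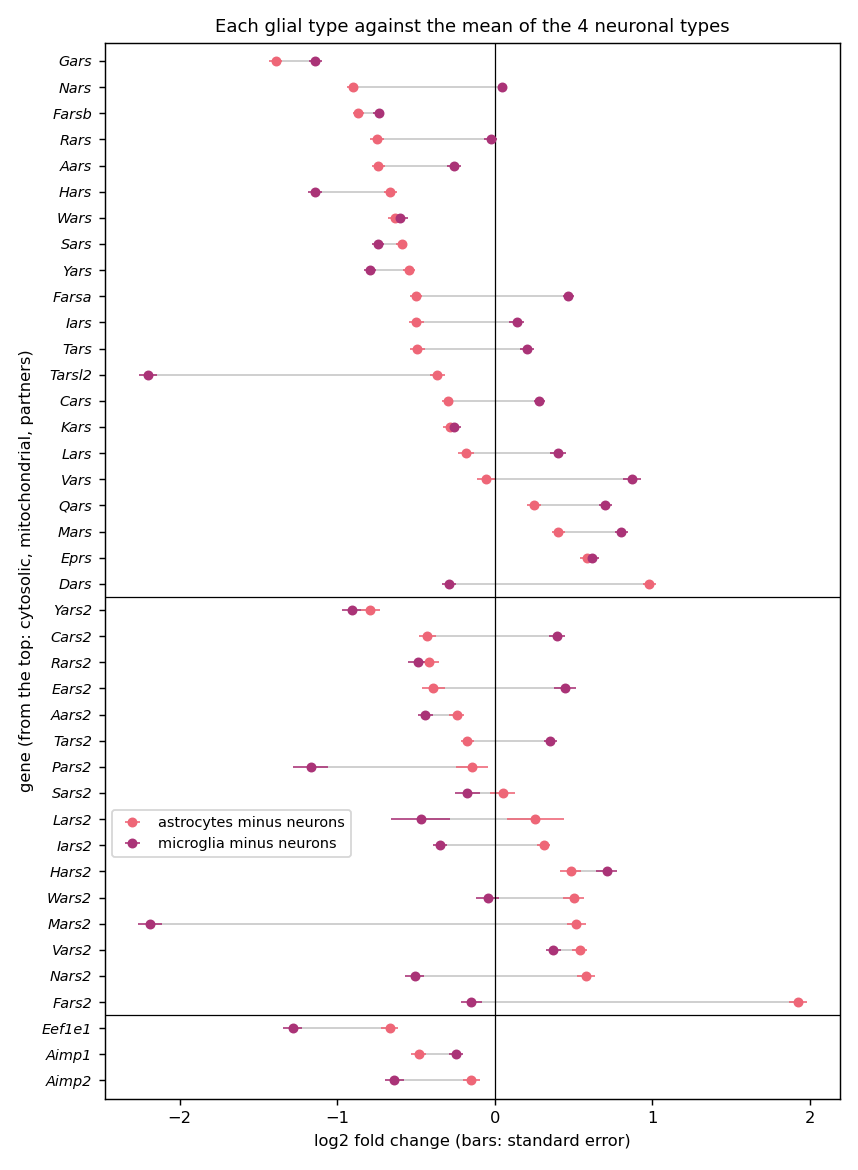
Log2 fold change of 40 members in astrocytes and in microglia against the mean of the 4 neuronal types, with the standard error of the fit. Both comparisons share the neuronal libraries. Gars is low in both, Fars2 and Dars are above 0 in astrocytes only, and Tarsl2 and Mars2 are lowest in microglia.

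The direct comparison of the glial types had most of its higher members among the cytosolic and most of its lower members among the mitochondrial enzymes. In microglia 18 members were higher than in astrocytes (all genes, 36.3%), 13 of them cytosolic, and 18 were lower (all genes, 39.8%), 11 of them mitochondrial. The medians were 0.40 for the cytosolic enzymes and -0.22 for the mitochondrial ones, beside -0.04 for all genes. Farsa (log2 fold change 0.97 ± 0.05, adjusted p = 1.4e-12), Nars (log2 fold change 0.95 ± 0.04, adjusted p = 2.3e-13) and Vars (log2 fold change 0.93 ± 0.07, adjusted p = 2.2e-09) led the higher members. For Farsa the libraries were at 40.5, 42.3 and 44.4 TPM in microglia and 22.3, 21.4 and 18.6 TPM in astrocytes, and for Nars at 204, 206 and 198 and 103, 106 and 96.2 TPM, with no overlap in either. Vars was at 18.1, 14.6 and 16.6 TPM in astrocytes. Mars2 (log2 fold change -2.71 ± 0.09, adjusted p = 4.4e-15), Fars2 (log2 fold change -2.07 ± 0.08, adjusted p = 1.1e-13) and Tarsl2 (log2 fold change -1.84 ± 0.07, adjusted p = 2.2e-14) led the lower members, and the values of all 3 in both types stand above. Dars (-1.27 ± 0.06), Nars2 (-1.09 ± 0.08) and Pars2 (-1.03 ± 0.13) were lower in microglia by at least 2-fold too, which makes 6 members in all (all genes, 23.1%). The astrocytes were of batch 1 and the microglia of batch 2. Within batch 2, where 1 astrocyte library was sequenced, the differences of Mars2, Fars2 and Farsa were -2.70, -1.99 and 0.95.

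Cerebellar granule cells had most cytosolic enzymes above the mean of the other neurons, at a summed level that interneurons shared. Against the mean of the other 3 neuronal types, 21 members were higher there (all genes, 34.9%), 14 of them cytosolic, and 10 were lower (all genes, 43.0%). The median of the cytosolic enzymes was 0.26, beside -0.21 for all genes. Mars2 led (log2 fold change 1.23 ± 0.06, adjusted p = 2e-12), with the values given above. Vars was at 36.1, 32.3 and 31.4 TPM against 10.1, 17.3 and 20.7 TPM (lowest, median and highest of 9 libraries) in the other neurons (log2 fold change 1.14 ± 0.06, adjusted p = 2.5e-12). Eprs was at 62, 63.2 and 64.9 TPM against 16.7, 32.9 and 41.6 TPM (log2 fold change 1.11 ± 0.05, adjusted p = 1.8e-13). In neither did the groups overlap. These 3 were the members higher by at least 2-fold, where 14.5% of all genes were. Aars was at 156, 145 and 149.6 TPM, above the 59.3, 75.4 and 122 TPM of the others (0.85 ± 0.04), and Mars (0.93 ± 0.04), Tars (0.66 ± 0.04), Lars (0.65 ± 0.05) and Nars (0.55 ± 0.03) were higher as well. Kars, the lysyl enzyme of both compartments, was at 120.4, 111 and 112 TPM against 66.2, 82.8 and 93.6 (0.52 ± 0.04). Nars2 (log2 fold change -0.57 ± 0.06, adjusted p = 2.9e-07), Dars (log2 fold change -0.43 ± 0.05, adjusted p = 1.4e-07) and Qars (log2 fold change -0.43 ± 0.05, adjusted p = 2.9e-07) were the 3 lowest. Nars2 was at 7.41, 7.18 and 6.29 TPM against 6.87, 7.9 and 13, and Qars at 27, 27.6 and 29.8 TPM against 31.1, 37.3 and 39.2. Nars2 overlapped with the other neurons and Qars did not.

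Layer V neurons were low in several of the enzymes that were high in cerebellar granule cells. The comparisons among neurons share their libraries, each type standing in the mean against which the others are set. At 2-fold or more, 1 member was lower in layer V neurons (all genes, 9.21%) and 0 were higher (all genes, 17.3%). At any size, 23 members were lower than in the other neurons (all genes, 31.7%) and 12 higher (all genes, 35.9%). On the log2(TPM + 1) scale the split became 29 lower and 4 higher, beside 9024 and 4606 of the 20524 genes. The median of all genes was -0.11 on that scale in place of 0.04. Eprs was at 17.8, 16.7 and 18.5 TPM against 32.3, 41.4 and 64.9 TPM (log2 fold change -1.07 ± 0.05, adjusted p = 4.8e-12). Vars was at 11.2, 10.1 and 10.6 TPM against 16.7, 20.6 and 36.1 TPM (log2 fold change -0.85 ± 0.06, adjusted p = 1.6e-09). Wars2 was at 2, 1.74 and 1.61 TPM against 2.53, 3.46 and 5.71 TPM (log2 fold change -0.73 ± 0.08, adjusted p = 1.8e-07). All 3 were below every other neuronal library. The members higher in layer V neurons were led by Lars2 (log2 fold change 0.99 ± 0.18, adjusted p = 8.2e-05), which was at 808, 848 and 747 TPM against 328, 428 and 936 TPM. With protein-coding transcripts only, the value of Lars2 turned to -0.41. Tarsl2 was at 27.7, 26.4 and 29.9 TPM against 19.2, 20.7 and 24.2 (log2 fold change 0.63 ± 0.05, adjusted p = 2.2e-09), and Aimp2 at 40.1, 37.7 and 41.5 TPM against 25.3, 31.1 and 37.1 (log2 fold change 0.59 ± 0.05, adjusted p = 2.7e-08). For both, every layer V library was above every library of the other neuronal types.

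Dentate gyrus granule cells, taken with the same driver as layer V neurons, had 21 members lower than the other neurons (all genes, 27.6%) and 10 higher (all genes, 36.5%), the latter mostly mitochondrial (7). None passed 2-fold, which 8.59% and 17.0% of all genes did. Aars was at 59.3, 68 and 66.9 TPM against 71, 119.6 and 156 TPM (log2 fold change -0.86 ± 0.05, adjusted p = 1.4e-11). Nars was at 141, 153 and 158 TPM against 168, 273 and 313 TPM (log2 fold change -0.80 ± 0.03, adjusted p = 5.3e-13). Eef1e1 was at 19, 30.1 and 27.2 TPM against 25.2, 30.2 and 54.5 TPM (log2 fold change -0.79 ± 0.06, adjusted p = 1.3e-09). All 3 dentate gyrus libraries were below the others for Aars and Nars, and Eef1e1 overlapped with layer V and cerebellar granule cells. Hars (-0.72 ± 0.04) and Sars (-0.67 ± 0.04) were also lower. On the high side, Wars2 was at 4.13, 4.52 and 5.71 TPM against 1.61, 2.98 and 3.54 TPM (log2 fold change 0.74 ± 0.07, adjusted p = 4.7e-08). Pars2 was at 9.1, 9.92 and 10.2 TPM against 4.87, 6.51 and 9.57 TPM (log2 fold change 0.57 ± 0.10, adjusted p = 7.7e-05), and Vars2, the mitochondrial valyl enzyme, at 14.9, 10.9 and 12.3 TPM against 6.1, 6.79 and 10.5 TPM (log2 fold change 0.54 ± 0.05, adjusted p = 3.2e-08). On the log2(TPM + 1) scale 11 members were higher and 14 lower, beside 7030 and 5684 of the 20524 genes. Wars2, Vars2, Aars and Nars did not overlap with the other neurons, and Pars2 did. Within batch 2, which held 1 dentate gyrus library, the value of Pars2 was 0.51 with adjusted p = 0.056.

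Interneurons had 20 members higher than the other neurons (all genes, 36.0%), 12 of them cytosolic, and 12 lower (all genes, 28.4%), with no member past 2-fold in either direction (of all genes, 3687 of 20524 were higher and 6.64% lower by as much). On the log2(TPM + 1) scale 21 were higher and 4 lower, beside 7966 and 4670 of the 20524 genes. Dars led (log2 fold change 0.60 ± 0.04, adjusted p = 1.1e-09), with levels as given above. Sars was at 307, 309 and 329.6 TPM against 162, 207 and 260.5 TPM (log2 fold change 0.54 ± 0.03, adjusted p = 1.7e-10), and Eef1e1 at 44.8, 46.7 and 54.5 TPM against 19, 27.2 and 30.3 TPM (log2 fold change 0.53 ± 0.05, adjusted p = 9.3e-08). For Dars, Sars and Eef1e1 every interneuron library lay above every other neuronal one. The 3 lowest were Lars2 (log2 fold change -0.81 ± 0.20, adjusted p = 0.0015), Farsa (log2 fold change -0.37 ± 0.04, adjusted p = 1.1e-07) and Wars2 (log2 fold change -0.31 ± 0.08, adjusted p = 0.0017). Lars2 was at 443, 328 and 410.5 TPM against 366, 613 and 936 TPM, and with protein-coding transcripts only its value was 0.07. Farsa was at 30.9, 30.6 and 31.3 TPM against 23.9, 41 and 45.6 TPM, within the range of the others, and Wars2 at 3.54, 2.53 and 2.98 TPM against 1.61, 3.33 and 5.71 TPM. On the log2(TPM + 1) scale Wars2 had -0.04 and no longer passed the test (adjusted p = 0.75). All interneuron libraries were of batch 2, in which 1 library of each other neuronal type was sequenced. Within it the values of Dars, Sars and Eef1e1 were 0.58, 0.47 and 0.53. The excess of higher over lower members was not seen within that batch.

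The remaining members are given by their ranges. Aars2 and Rars2, the mitochondrial alanyl and arginyl enzymes, were at 10.4 to 18.9 and 14.5 to 27.5 TPM in neurons and at 9.34 to 11.2 and 11.5 to 17.7 TPM in glia. Both were lower in glia by less than 2-fold. Sars2 and Cars2, the mitochondrial seryl and cysteinyl enzymes, were at 6.3 to 16 and 9.77 to 17.1 TPM in neurons and at 7.75 to 9.94 and 8.01 to 16.2 TPM in glia, with overlap in each. Tars, the main cytosolic threonyl enzyme, was at 20, 35.2 and 48.8 TPM in neurons and 18, 30.8 and 42.6 TPM in glia, and Cars, the cysteinyl enzyme, at 23.3, 29 and 38.7 and 20.3, 28.8 and 41 TPM. Tars2, the mitochondrial threonyl enzyme, was at 26.7, 26.5 and 29.3 TPM in microglia and 19.6, 17.6 and 17 TPM in astrocytes. Iars and Iars2, the isoleucyl enzymes, differed between the glial types in opposite directions. Iars was at 17.2, 16.1 and 15.3 TPM in astrocytes and 28.2, 28.4 and 26.8 TPM in microglia, and Iars2 at 23.7, 20.7 and 22 and 15, 14.5 and 14.9 TPM.

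The genes of the multisynthetase complex differed in direction. Of its 11 genes, 4 were higher and 7 lower in astrocytes than in neurons (all genes, 43.0% and 34.1%), and 5 were higher and 5 lower in microglia (all genes, 45.1% and 37.2%). Eprs, Mars and Qars were higher and Kars and the 3 scaffold genes lower in both glial types, while Dars was higher in astrocytes and lower in microglia. Kars was at 66.2, 89.8 and 120.4 TPM in neurons and 59.3, 62.6 and 66 TPM in glia, with log2 fold change -0.27 ± 0.03. In cerebellar granule cells 6 of the 11 were higher and 3 lower than in the other neurons (all genes, 34.9% and 43.0%). The order of scaffold and enzyme messages varied too. Eef1e1 was at 48.7 ± 5.1 TPM and Eprs at 33.2 ± 0.993 TPM (SD, n = 3) in interneurons, but at 14.7 ± 0.491 and 47.6 ± 1.36 TPM in microglia.

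All 6 enzymes of the list linked to peripheral neuropathy (Gars, Yars, Aars, Hars, Mars and Wars) were cytosolic. In both glial types 5 were lower than in neurons and Mars was higher, although in astrocytes the log2(TPM + 1) scale gave Mars a difference of 0.00. The list had a median log2 fold change of -0.65 in astrocytes and -0.69 in microglia, beside 0.14 and 0.15 for all genes. All 6 were higher in cerebellar granule cells than in the other neurons, with a median of 0.35, and all 6 were lower in dentate gyrus granule cells, with a median of -0.45. Of all genes 34.9% were higher in the former and 27.6% lower in the latter, with medians of -0.21 and 0.10, and of the 21 cytosolic enzymes 14 were higher and 13 lower. Yars was at 114, 115 and 113 TPM in cerebellar granule cells and 68.5, 76 and 80.1 TPM in dentate gyrus granule cells. Wars, the tryptophanyl enzyme, was at 92.7, 94.5 and 90.4 TPM and 69.3, 79.2 and 83.7 TPM.

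For 12 amino acids a single cytosolic and a single mitochondrial gene were set side by side as a ratio of TPM within each library. The ratio was above 1 in all 18 libraries for 10 of them, the exceptions being isoleucine and leucine. The leucine ratio rests on the Lars2 transcripts described above. For isoleucine the ratio of Iars to Iars2 was 0.732 ± 0.0427 (SD, n = 3) in astrocytes, below 1 in all 3, and 1.88 ± 0.0786 in microglia. Microglia were apart for methionine, where Mars exceeded Mars2 63.9 ± 1.74-fold, while the other 15 libraries lay between 5.97 and 11. In microglia, though, 51.2% of the Mars TPM was on protein-coding transcripts, against 89.2% in astrocytes, and Mars2 was at 0.77 TPM. Ratios of protein-coding transcripts only were not computed. For histidine the ratio of Hars to Hars2 was 1.46 to 1.91 in microglia, 3.05 to 3.67 in astrocytes and 4.57 to 13.3 in neurons, with no overlap between the 3. Of the Hars2 TPM, 48.5% was on protein-coding transcripts in microglia, 69.7% in astrocytes and 56.8 to 84.2% in the neuronal types. Serine was the other amino acid for which all glial ratios were below all neuronal ones, at 12.5 to 15.4 against 16.2 to 28.9. For asparagine the ratio of Nars to Nars2 was 43.3 ± 4.27 in cerebellar granule cells, 35.3 ± 5.08 in microglia and 8.56 ± 0.161 in astrocytes. These ratios are messages bound to ribosomes and not amounts of enzyme.

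**Figure D5:**
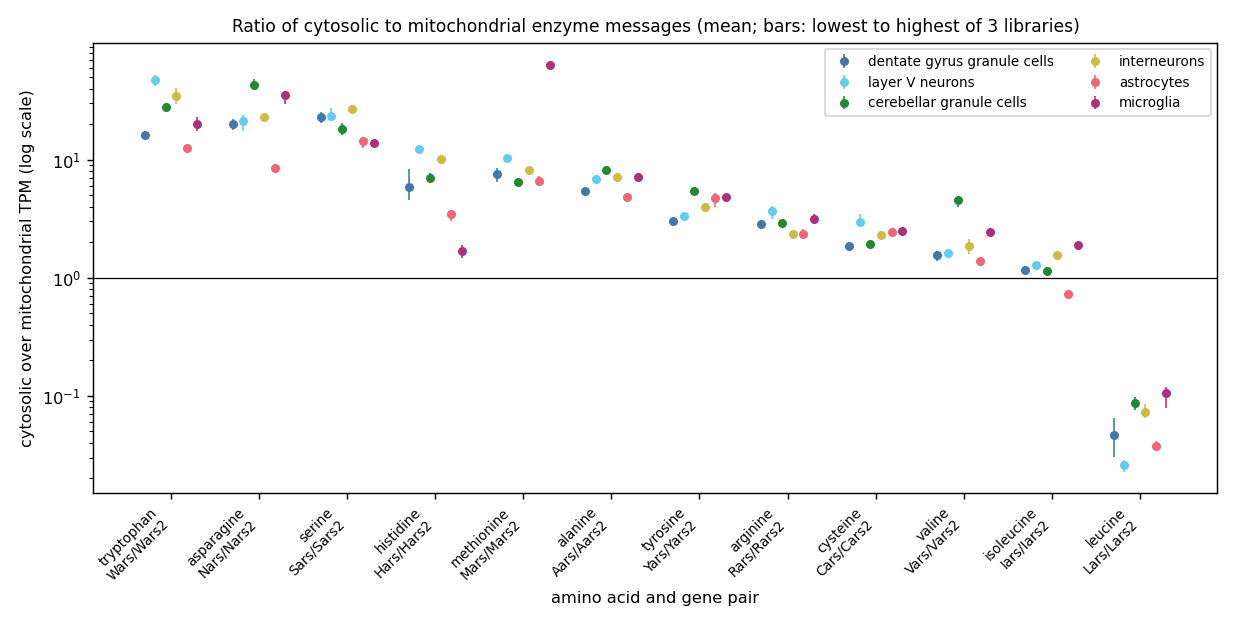
Ratio of cytosolic to mitochondrial enzyme TPM for 12 amino acids in 6 cell types (points, mean of 3 libraries; bars, lowest to highest library; log scale; line at 1). Methionine in microglia lies far above the other cell types, isoleucine falls below 1 in astrocytes, and histidine is lowest in both glial types.

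The make-up of the messages limits what a gene level means for some members. For 19 of the 41, over 90% of the TPM was on transcripts annotated protein-coding, and the median was 87.6%. Low shares were, besides that of Lars2, those of Qars at 37.4%, Vars2 at 56% and Eef1e1 at 57.5%. Gars, Dars and Mars2 rested almost wholly on 1 protein-coding transcript each, that of Gars with 99.9% of the gene. Tarsl2 did so as well, except that in microglia 72.7% of its TPM was protein-coding. Kars, whose gene encodes the cytosolic and the mitochondrial enzyme by alternative splicing, had 77.9% of its TPM on one protein-coding transcript and 18.9% on another. The first was at 94.2 ± 5.29 TPM in cerebellar granule cells and 44.9 ± 1.38 in astrocytes, whereas the other was at 19.3 ± 0.588 and 11.9 ± 2.56. Which of them gives which enzyme was not assigned here. Sequence shared with other genes touched Iars, with 14.7% of its 31-base words in another gene, mostly the pseudogene Gm4849, and Aars, with 13.9%, mostly in the overlapping Exosc6. The other 39 shared under 5%. Mars overlaps Ddit3 on the opposite strand, and whether strand was used in the quantification is not given in the sources used here.

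The RefSeq promoter windows of the members, 250 bases before to 50 after the annotated start, were searched for TTGCATCA, the core of the amino acid response element that ATF4 binds with C/EBP factors, on both strands (TGATGCAA on the other), allowing no mismatch. Windows were at hand for 31 of the 41 members in GRCm38.p6. The letters stood in those of 4 of 14 cytosolic enzymes, 0 of 14 mitochondrial enzymes and 0 of 3 partners. Counted by gene as well, 1.03% of the 27025 genes with a window held them, and counted by window, 0.895% of the 32851 windows. The related TTTCATCA (TGATGAAA on the other strand) stood in those of Aars and Gars and in 1.02% of all windows. The stretches around the 4 matches are printed from RefSeq, 5′ to 3′ on the gene's strand with the match in capitals, to show the letters beside the levels of their genes. In Aars and Tars the match begins 112 and 15 bases before the start, and in Iars and Yars 8 and 4 bases into the transcript, where only the nearest bases are shown.
Aars, chr8:111033680-111033787, plus strand: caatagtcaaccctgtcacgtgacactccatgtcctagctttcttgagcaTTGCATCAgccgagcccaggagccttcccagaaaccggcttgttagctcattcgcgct
Tars, chr15:11399659-11399723, minus strand: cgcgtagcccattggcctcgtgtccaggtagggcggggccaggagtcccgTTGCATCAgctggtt
Iars, chr13:49682126-49682155, plus strand: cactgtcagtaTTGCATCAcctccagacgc
Yars, chr4:129189895-129189924, plus strand: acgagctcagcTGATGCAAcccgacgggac
The log2 fold changes in cerebellar granule cells were 0.85 ± 0.04 for Aars, 0.66 ± 0.04 for Tars, 0.22 ± 0.05 for Iars and 0.45 ± 0.04 for Yars, and in astrocytes against neurons they were -0.74 ± 0.04, -0.49 ± 0.05, -0.50 ± 0.05 and -0.54 ± 0.04. Vars, Eprs and Mars were higher in cerebellar granule cells by more than any of the 4, and the windows of Eprs and Mars held no match, while that of Vars was not at hand. Of all 21 cytosolic enzymes, 14 were higher in cerebellar granule cells and 16 lower in astrocytes. A match is a description of the letters and no evidence of binding, and its bearing on the levels was not tested.

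Genes around the members in the pathway were read from lists. Among 14 genes of the stress response and amino acid supply, 8 were higher (all genes, 43.0%) and 4 lower (all genes, 34.1%) in astrocytes than in neurons. Of the 21 cytosolic synthetases, 16 were lower there. Phgdh and Psat1, enzymes of serine synthesis, were at 525 ± 20.5 and 418 ± 17.5 TPM in astrocytes against 0.628 ± 0.24 and 3.74 ± 0.156 TPM in cerebellar granule cells. Their log2 fold changes in astrocytes were 7.21 ± 0.06 and 5.05 ± 0.04, and that of Slc7a11, the cystine transporter, was 7.02 ± 0.11. Sars, which charges serine, was lower in astrocytes (-0.59 ± 0.04). In cerebellar granule cells 14 cytosolic enzymes were higher. Of the 14 listed genes, 5 were higher there (all genes, 34.9%) and 7 lower (all genes, 43.0%), with Phgdh (-3.89 ± 0.14) and Psat1 (-2.70 ± 0.06) lowest. Trib3, a known target of ATF4, had 2.60 ± 0.25, but its levels were near the floor. Its mean was 0.92 ± 0.15 TPM in cerebellar granule cells and 0.14 to 0.22 TPM in the other neuronal types. Atf4 itself was lower in dentate gyrus granule cells than in the other neurons (-1.03 ± 0.05). It was at 67 ± 9.3 TPM there, 109.6 ± 2.19 TPM in cerebellar granule cells, 120 ± 2.08 TPM in layer V neurons and 168 ± 7.85 TPM in interneurons. In astrocytes it was at 84.8 ± 1.59 TPM and in microglia at 140 ± 4.62 TPM. Layer V neurons lay above cerebellar granule cells in Atf4 but below them in the cytosolic sum. The relation of Atf4 to the sums was not tested.

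Of 19 genes that handle charged tRNA (elongation factors, editing and amidation enzymes), 8 were higher (all genes, 46.8%) and 8 lower (all genes, 36.4%) in glia. Eef1a2, the elongation factor of neurons and muscle, differed most, at 2927 ± 82.5 TPM in cerebellar granule cells, 204 ± 20.6 in astrocytes and 116 ± 5.81 in microglia (-3.29 ± 0.04 in glia). Dtd1, which clears D-aminoacyl-tRNAs, was lower too (-1.90 ± 0.04), and Prorsd1, related to the editing domain of prolyl-tRNA synthetases, was higher (2.10 ± 0.10). Both differences in glia were larger in size than those of any member. Among 11 genes linked to interferon, which is known to induce Wars in other cells, 11 were higher in microglia than in neurons (all genes, 45.1%), with Psmb8 at 247 ± 4.74 TPM. Wars was at 51.8, 55.1 and 52.7 TPM in microglia against 69.3, 87.3 and 105 TPM in neurons and was lower (-0.60 ± 0.05).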

How the data were processed

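Ribosome-bound poly(A) RNA was sequenced from 22 libraries of 18 replicates, with a stranded kit. Adapters were removed with cutadapt 3.5, and kallisto 0.46.2 assigned the reads of each library to GENCODE mouse transcripts (GRCm38). The authors deposited 2 values per transcript, estimated counts and TPM. The estimated counts are not whole numbers, and reads that fit several transcripts are divided between them by kallisto's model. The deposited TPM values are scaled by transcript length and by library total. Here both were summed per gene over all transcripts of the gene, and the sums of counts were rounded. Nothing but the gene symbol and transcript type was used to choose members. The members, gene lists and tests were chosen with earlier results of these data known.

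Genes passing filterByExpr (20524) were fitted over the 18 libraries with edgeR 4.0.16 (TMM, quasi-likelihood), with no covariate, as contrasts of cell type means, and p-values were adjusted by Benjamini and Hochberg over all genes tested, with a threshold of 0.05. Alternatives were RLE size factors, DESeq2 1.42.0, no filter, protein-coding transcripts only, no mitochondrially encoded genes, limma 3.58.1 on log2(TPM + 1), the batch 2 libraries, fits within each batch, a batch term with limma-voom over all 22 libraries, a replicate block, and each library left out in turn. On data simulated for glia against neurons (19413 genes), edgeR recovered 36, 43, 44 and 48 of 50 genes changed by 1.5-, 2-, 3- and 4-fold. It also called 11 unchanged genes. Only 200 genes were changed there, while 17087 of 20524 were called in the data. The simulation therefore does not show how the fit does when most genes differ.

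Values are given in every library for the 3 called members with the largest change in each direction of each comparison, the 3 most and 3 least abundant, Kars, Gars, Tarsl2 and the partners. Genes outside the members are named only among the 3 largest changes of their list. Gene positions came from a GENCODE annotation of GRCm38 and promoter windows from RefSeq (GRCm38.p6). Labels give layer V replicate 1 a different sex in the 2 batches, and it was used as labelled in batch 1. The mitochondrial sum without Lars2 was added after the data were seen. Of the members, 1 is counted in the totals but not reported here by name or drawn. Protein sequences were not used here.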

Additional observations from a re-analysis of the deposited data

Results flagged for a closer look

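For 13 members the glial types stood on opposite sides of the neurons, with both differences past the test, and the direct comparison of microglia with astrocytes (edgeR, adjusted p at most 0.05) gave a difference as well. The share of all genes that met this rule was not computed, so the count is not shown to be particular to the members. Of the 20524 genes tested, 15814 were called in astrocytes and 16892 in microglia against neurons, and 15615 between the glial types. For 8 of the 13 members, Cars, Cars2, Ears2, Farsa, Iars, Lars, Tars and Tars2, astrocytes were lower and microglia higher than neurons. The log2 differences of microglia minus astrocytes were 0.97 for Farsa, the alpha subunit of the phenylalanyl enzyme, 0.83 for Ears2, 0.82 for Cars2, 0.70 for Tars, 0.64 for Iars, 0.58 for Lars, 0.58 for Cars and 0.53 for Tars2. For the other 5, Dars, Fars2, Iars2, Mars2 and Nars2, astrocytes were higher and microglia lower. Their differences were -2.71 for Mars2, -2.07 for Fars2, -1.27 for Dars, -1.09 for Nars2 and -0.66 for Iars2. Some of the differences from neurons behind this were lost under other settings. With protein-coding transcripts only, Ears2 had -0.02 (adjusted p = 0.89) in astrocytes and Cars2 had -0.03 (adjusted p = 0.73) in microglia. Iars2 in astrocytes had 0.13 (adjusted p = 0.11) within batch 2 and 0.06 (adjusted p = 0.31) on the log2(TPM + 1) scale. Astrocytes were of batch 1 and microglia of batch 2, apart from 1 repeat astrocyte library of batch 2.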

How the results depend on the processing

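Stability was followed for 175 called fold changes of members with an absolute log2 value of at least 0.3. Of their 1834 values under settings other than leaving out a library, 1820 kept their direction and their side of the threshold, and of 3150 with a library left out 3148 did. Of these 175 calls 163 held under every alternative, against 29 of the 97 smaller ones. With a library left out, the 2 exceptions among the 175 were Lars2 in microglia against neurons, at -0.37 without microglia replicate 2 and -0.47 without replicate 3. With protein-coding transcripts only, the direction turned for Lars2 in interneurons (0.073) and layer V neurons (-0.41), for Cars2 in microglia against neurons (-0.033) and for Mars in microglia against astrocytes (-0.032), and on the log2(TPM + 1) scale for Hars2 in dentate gyrus granule cells (0.10). On that scale Mars in glia was 0.31, with protein-coding transcripts only 0.30, against 0.60. The cause was not tested. Within batch 2, which has fewer libraries, 3 members were lower in cerebellar granule cells, 6 higher in dentate gyrus granule cells, 7 higher in layer V neurons and 11 higher in interneurons, and on the log2(TPM + 1) scale 4 were lower in interneurons and 4 higher in layer V neurons. Split by direction within batch 2, 22 were higher and 3 lower in cerebellar granule cells. With each library left out in turn, the count of members lower in glia was 22 to 23 and higher 9 to 11, in astrocytes 25 to 27 and 11, in microglia 22 to 25 and 13 to 14, and in microglia against astrocytes 14 to 19 and 16 to 20. Among neurons it was 7 to 10 and 21 to 24 in cerebellar granule cells, 21 to 26 and 9 to 12 in layer V neurons, 20 to 22 and 9 to 11 in dentate gyrus granule cells, and 9 to 13 and 16 to 21 in interneurons. Replicate numbers were not taken to pair the libraries, since the deviations of same-numbered libraries had a mean correlation of 0.03 and were over 0.1 in 3 of 45 pairs, although 15 of 18 libraries lay closest to their own number, a hint from the data the other way. With the replicate block, 20 members were lower in dentate gyrus granule cells, 11 in interneurons, 22 in microglia and 17 in microglia against astrocytes, all 41 differed across cell types, and none of the 175 followed calls was lost. The test of any difference was not run within batches. Summed over protein-coding transcripts only, the cytosolic level was 872 to 1846 TPM across cell types. Depth limits the low members most, since Mars2 in microglia was under 1 TPM.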
